A study of Homo sapiens with 2 samples.

Results

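The genes described here encode the machinery that begins transcription: the subunits of RNA polymerases I, II and III, the general transcription factors of the TFII and TFIII series, the TATA-binding protein-associated factors (TAFs), and the Mediator complex. They were chosen by name, not by value, though earlier results of these data were known when the members were chosen. The rule covers every probe set annotated to exactly 1 gene symbol of certain forms. These are POLR1, POLR2 or POLR3 plus letters, GTF2 or GTF3 plus letters, TAF plus a number, and MED plus a number. The rule took 198 of 36289 probe sets (a probe set is a group of short array probes summarised as 1 value), and these named 107 of 16716 measured genes. Messenger RNA was measured in 1 group of 2 samples, replicates 1 and 2, of an untreated lymphoblastoid cell line, a human B-cell culture immortalised with Epstein-Barr virus; the titles spell the line GM06690 and the growth protocol GM06990. Each sample was hybridised to 1 Affymetrix Human Genome U133 Plus 2.0 array. As only 1 condition was sampled, calls against background and differences between the arrays are described and no p-value is given. The labels do not call the replicates separate cultures, and their spread may be technical.

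RNA polymerase I makes the large ribosomal RNA, polymerase II makes messenger RNA, and polymerase III makes transfer RNA and the smallest ribosomal RNA. Each polymerase is brought to its promoters by general factors, among which TFIID, built from TBP and TAFs, binds the core promoter for polymerase II and SL1, built from TBP and other TAFs, serves polymerase I. Mediator passes signals from DNA-bound activators to polymerase II through its head, middle, tail and kinase modules. In dividing cells such as lymphoblastoid lines this machinery is used at most active genes.

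The values are log2 RMA signals, given in the order replicate 1, replicate 2. A gene is represented by its brightest probe set and was called above background when it exceeded, on both arrays, a level set from 85 genes of liver, nerve, muscle and other specialised tissues, namely their 95th percentile. That level was 5.67 in replicate 1 and 5.63 in replicate 2. Of the 85 reference genes 5 were themselves above it, a count that the choice of percentile largely fixes in advance. The highest was MBP (10.30 and 10.36), with 4 of 7 probe sets above, so the reference was not silent throughout. Probe sets differ in affinity, so the signal of one gene is not set against that of another. The median intensity was 33.2 and 33.3, which normalization across arrays makes alike. All 8 measured B-cell markers lay above background, among them MS4A1 (13.12 and 13.26) and CD79A (11.32 and 11.27). Of 35 measured markers of T cells, NK cells, myeloid cells, erythroid cells, fibroblasts and epithelium 4 did: HBB, COL1A1, DCN and CDH1, each by some of its probe sets only. The B-cell markers CD79B, PAX5, CD22 and BLK were likewise above by some of their probe sets only.

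Of the 107 genes 92 (86.0%) were above background on both arrays, beside 52.3% of all measured genes. Of the probe sets 146 of 198 (73.7%) were, beside 47.7% of all probe sets with 1 symbol. The median signal of the 107 genes was 8.92, with quartiles at 7.23 and 10.12. In the pieces of the machinery, 28 of 29 polymerase genes, 13 of 20 GTF2 genes, 7 of 8 GTF3 genes, 19 of 22 TAF genes and 25 of 28 Mediator genes were above. Of the 15 genes that were not above on both arrays, 4 were antisense RNA genes or pseudogenes that the name rule also took. Among the 102 genes sorted into complexes, the TFII-I family or paralogs, 91 were above. Not all of these 102 are subunits of a complex.

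**Figure D1:**
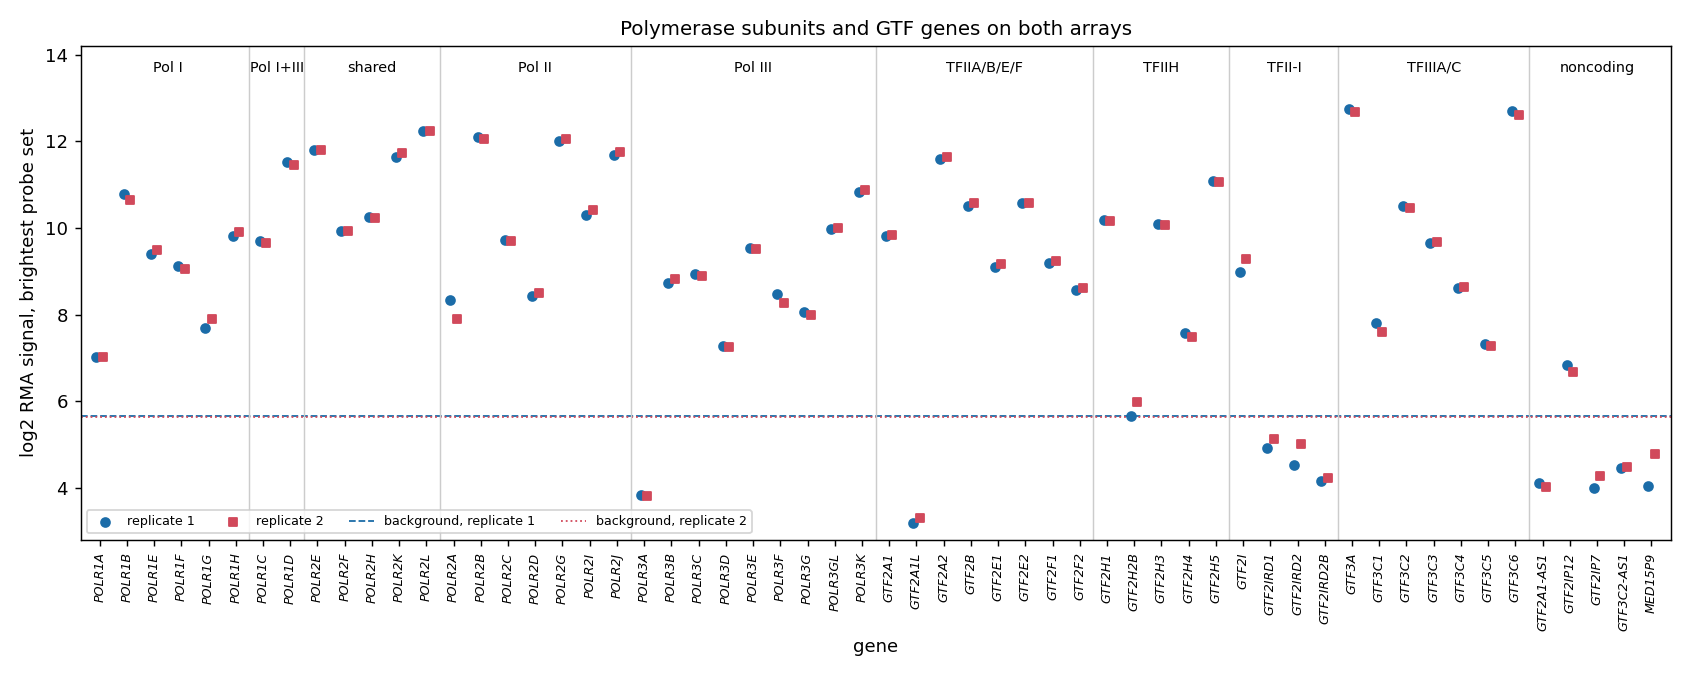
Log2 RMA signal (y axis) of each polymerase and GTF gene (x axis), grouped by complex, with 1 point per array (circle, replicate 1; square, replicate 2) and dashed and dotted lines at the background levels of 5.67 and 5.63. POLR3A, GTF2A1L and 3 TFII-I family genes lie under the lines on both arrays, GTF2H2B straddles them, and GTF2IP12 is the 1 antisense or pseudogene entry above; heights of different genes are not comparable because their probes differ.

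RNA polymerase I was represented in full, with all 6 listed subunits above background on both arrays. Its largest subunit POLR1A, which holds part of the active site, had signals of 7.02 and 7.01. The second-largest subunit POLR1B had 10.79 and 10.64, and all 3 of its probe sets were above. POLR1E, a subunit of the polymerase's TFIIF-like module, had 9.41 and 9.50. All 3 lay over the level on both arrays, though POLR1A did not when the level was the reference genes' 99th percentile (7.27 and 7.36). The remaining subunits POLR1F, POLR1G and POLR1H ranged from 7.79 to 9.86 in their mean signal. POLR1F had a second probe set that exceeded the level in replicate 1 (5.90) and not in replicate 2 (5.59).

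Subunits that several polymerases share were all above background by every probe set. POLR1C had 9.70 and 9.65, and POLR1D 11.51 and 11.46. These 2 form the assembly platform shared by polymerases I and III, and their 5 probe sets were all above. Of the 5 subunits common to all 3 polymerases, POLR2E had 11.79 and 11.79, POLR2F 9.94 and 9.94, and POLR2H 10.25 and 10.22. Each of the 3 differed between the arrays by less than 0.03. POLR2K and POLR2L, which encode small zinc-binding subunits, had means of 11.68 and 12.24.

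For RNA polymerase II 7 of 7 measured subunits were above background. POLR2A, the largest subunit, whose repeated tail is phosphorylated as transcription proceeds, had 8.33 and 7.91 by 1 of 3 probe sets. The other POLR2A probe sets lay far under the level on both arrays, at means of 3.98 and 3.70. POLR2B, the second-largest subunit, had 12.09 and 12.05, and 2 of its 3 probe sets were above. The third read 3.43 and 3.30. POLR2C, which begins the assembly of the enzyme, had 9.73 and 9.69, with 1 of 3 probe sets under the level at 5.06 and 5.05. The other 4, POLR2D, POLR2G, POLR2I and POLR2J, ranged from 8.47 to 12.03 in their means. POLR2J has near-identical copies whose transcripts its probes may share, so its value of 11.71 is uncertain. POLR2M was measured only by probe sets that carry further symbols and was not counted.

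RNA polymerase III had 8 of 9 measured subunits above background. The exception was POLR3A, its largest subunit, with 3.83 and 3.82. That call rests on 1 probe set with a 7-digit identifier, the only one annotated to POLR3A among those analysed here, so it describes that probe set and not necessarily the gene's messenger RNA. Its partner in the active site, POLR3B, had 8.72 and 8.81 by 1 of 3 probe sets, the others reading means of 3.71 and 3.41. POLR3C, part of the initiation subcomplex, had 8.93 and 8.90. POLR3K, a small subunit that acts in termination, had 10.84 and 10.87 by its brightest probe set and 4.44 and 5.04 by the other. POLR3D, POLR3E, POLR3F, POLR3G and POLR3GL were all above. CRCP, a further subunit outside the name rule, was above as well (8.54 and 8.46).

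Of the general factors TFIIA, TFIIB, TFIIE and TFIIF 7 of 8 measured genes were above background. GTF2A1, the large TFIIA subunit that steadies TBP on DNA, had 9.82 and 9.84, while its second probe set exceeded the level in replicate 1 alone (5.94 and 5.62). GTF2A2, the small TFIIA subunit, had 11.60 and 11.63. GTF2B, the single-chain TFIIB that bridges TBP and the polymerase, had 10.51 and 10.57. The genes of TFIIE, GTF2E1 and GTF2E2, had means of 9.13 and 10.57, and those of TFIIF, GTF2F1 and GTF2F2, had means of 9.21 and 8.59. The 1 gene not above was GTF2A1L, described with the paralogs.

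TFIIH, which opens promoter DNA and also acts in nucleotide excision repair, had 4 of 5 measured genes above. GTF2H1 had 10.17 and 10.15, and GTF2H3 had 10.09 and 10.07. GTF2H4 (7.57 and 7.49) and GTF2H5 (11.09 and 11.06) were also above, GTF2H5 by 1 of 2 probe sets (the other at 3.60 and 3.48). GTF2H2B, a near-identical copy of GTF2H2, read 5.65 and 5.97 and so exceeded the level in replicate 2 alone. It was the only gene of the 107 above on exactly 1 array, beside 1.5% of all genes. Both probe sets that carry the symbols of GTF2H2 and its copies together were above, with means of 9.26 and 9.85.

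Of the TFII-I family 1 of 4 measured genes was above. GTF2I, which encodes the multifunctional factor TFII-I, was above with 8.99 and 9.29, whereas its relatives were not. A pair of further probe sets, shared by GTF2I and its pseudogenes, read 10.93 and 10.92 and 11.24 and 11.16. GTF2IRD1 read 4.91 and 5.12, GTF2IRD2 4.54 and 5.01, and GTF2IRD2B 4.16 and 4.22. Each of these calls rests on 1 probe set. GTF2I and GTF2IRD1 follow each other directly on chromosome 7 among the measured genes, with 1 called above and the other not. These genes and the GTF2I pseudogenes have near-identical stretches, so their single values are uncertain: the pseudogene entry GTF2IP12 read 6.83 and 6.68, above the level, and GTF2IP7 3.99 and 4.27, under it. With the level lowered to the reference genes' 75th percentile GTF2IRD1 was above, which made the family's count 2 of 4.

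The polymerase III factors TFIIIA and TFIIIC were above background in 7 of 7 cases. GTF3A, the zinc finger protein needed for the 5S ribosomal RNA gene, had 12.74 and 12.68. GTF3C1, the largest subunit of TFIIIC, had 7.80 and 7.60. GTF3C2 had 10.50 and 10.47, and all 3 of its probe sets were above. GTF3C3, GTF3C4, GTF3C5 and GTF3C6 ranged from 7.29 to 12.65 in their means, GTF3C3 with 2 of 4 probe sets under the level (means of 5.25 and 4.98). The antisense genes next to 2 factor genes, GTF3C2-AS1 (4.46 and 4.49) and GTF2A1-AS1 (4.11 and 4.03), were not above, while GTF3C2 and GTF2A1 were.

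**Figure D2:**
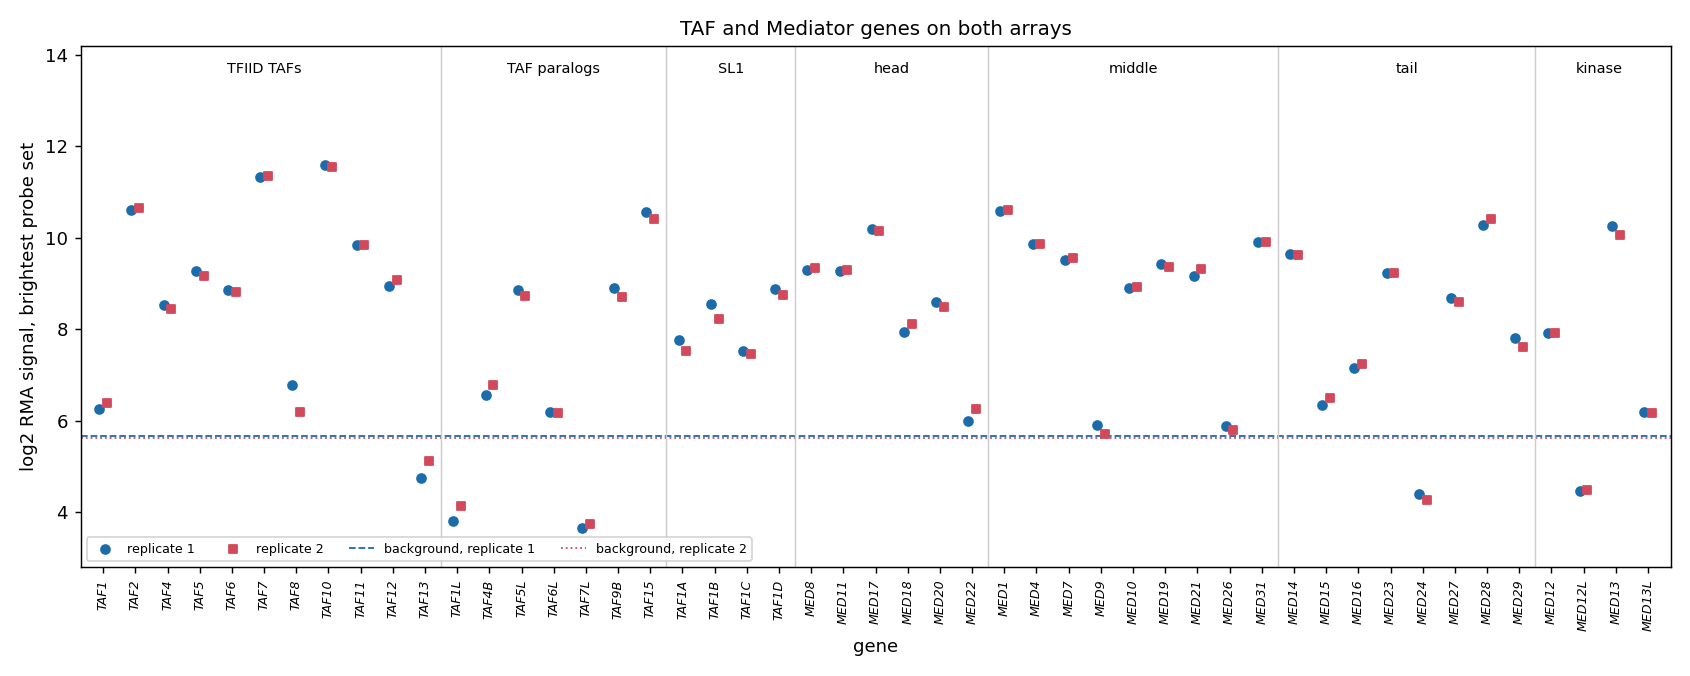
Log2 RMA signal (y axis) of each TAF and Mediator gene (x axis), grouped by complex, with 1 point per array (circle, replicate 1; square, replicate 2) and lines at the background levels of 5.67 and 5.63. TAF13, TAF1L, TAF7L, MED24 and MED12L lie under the lines on both arrays, and MED9 and MED26 lie just over them.

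Of the 11 measured TAFs of TFIID 10 were above background. TAF1, the scaffold of TFIID, had 6.25 and 6.38, with its second probe set at 4.40 and 4.50. TAF2, which contacts the initiator element, had 10.61 and 10.66. TAF4, a target of activators, had 8.53 and 8.45, with its second probe set at 4.25 and 4.21. TAF5, TAF6, TAF7, TAF10, TAF11 and TAF12 had means from 8.84 to 11.57. In TAF11 2 of 3 probe sets were above, the third at a mean of 4.81. TAF13, which pairs with TAF11, was the exception, at 4.75 and 5.11 by its only probe set. TAF8, the partner of TAF10, was above by 1 of 4 probe sets (6.79 and 6.20), the others having means of 5.67, 4.87 and 4.15. TAF9 was not counted because its probe set also carries the symbol AK6. That shared probe set read 11.51 and 11.51.

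The SL1 TAFs of polymerase I were above background in 4 of 4 cases. TAF1A had 7.77 and 7.52, TAF1B 8.56 and 8.23, and TAF1C 7.52 and 7.47. All 4 genes, TAF1D included (8.89 and 8.75), were lower in replicate 2 than in replicate 1, by 0.05 to 0.33. For TAF1D this was not seen in a pair of probe sets shared with small RNA genes, which read 11.59 and 11.66 and 11.57 and 11.63. By direction alone 56.9% of all genes called on 1 array or both were lower in replicate 2. TAF1C had a second probe set under the level (4.91 and 4.90). TAF15, an RNA-binding protein of the FET family that can join TFIID, had 10.56 and 10.42.

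Mediator's head and middle were above background throughout, with 6 of 6 and 9 of 9 measured genes. In the head, MED8 had 9.31 and 9.34 and MED11 had 9.27 and 9.29. MED17, the central head subunit, had 10.19 and 10.15. MED18, MED20 and MED22 followed with means of 8.02, 8.54 and 6.12. In the middle, MED1, the docking subunit for nuclear receptors, had 10.58 and 10.60 with all 4 probe sets above. MED4 had 9.87 and 9.87, and MED7 had 9.52 and 9.57. MED9 (5.90 and 5.71) and MED26, which links Mediator to elongation factors (5.88 and 5.80), exceeded the level by less than 0.3 on either array. MED31 had 9.91 and 9.91 by its brightest probe set and 4.73 and 4.68 by the other. MED10, MED19 and MED21 had means from 8.91 to 9.39.

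The backbone, tail and interface of Mediator had 7 of 8 measured genes above. MED14, the backbone that joins the modules, had 9.64 and 9.63, with 3 of 5 probe sets above. MED15 had 6.35 and 6.50, and MED16 had 7.14 and 7.24 with 3 of 4 probe sets above. MED23, known for its role in MAP kinase signalling, had 9.23 and 9.23, with 1 of 3 probe sets under the level. MED27 had 8.69 and 8.59 by 1 of 2 probe sets. MED28 and MED29 had means of 10.34 and 7.71. MED24 was not above (4.39 and 4.26 by 1 probe set), but a second probe set, which carries both MED24 and the microRNA gene MIR6884 and was therefore outside the rule, read 8.15 and 8.17. Its call thus depended on whether probe sets with several symbols were used.

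In the kinase module 3 of 4 genes were above. MED12, which activates the kinase, had 7.91 and 7.93, with 3 of 4 probe sets above and the fourth at 3.98 and 3.93. MED13, which tethers the module to Mediator, had 10.27 and 10.06 with all 3 probe sets above. MED13L had 6.19 and 6.16, with 2 of 4 probe sets above, and MED12L was not above. The catalytic partners of the module, named outside the rule, were all above: the kinases CDK8 (9.70 and 9.68) and CDK19 (8.78 and 8.66) and the cyclin CCNC (12.21 and 12.15).

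Several subunits have a paralog, which in some cases replaces them in certain tissues and in others belongs to another complex, and both genes were measured in 9 of 10 such pairs. Both members were above background in 5 pairs and only the first in 4. With the reference genes' 99th percentile as the level both were above in 2 pairs, since TAF4B, TAF6L and MED13L were lost. With the mean of all probe sets both were above in 3, since TAF6L and MED13L were lost. TAF1 fell under the level in both settings. Without _x_at and _s_at probe sets 6 pairs were measured, with both genes above in 3, only the first in 1, and neither in 2 (TAF1 and MED12 being lost). The pairs with both above were POLR3G (mean 8.03, SD 0.04, n = 2) and POLR3GL (mean 9.99, SD 0.01, n = 2), which take the same place in polymerase III; TAF4 and TAF4B (6.56 and 6.78), a form first described in B cells; TAF5 (9.27 and 9.16) and TAF5L (8.85 and 8.72); TAF6 (8.86 and 8.81) and TAF6L; and MED13 and MED13L. TAF5L and TAF6L belong to the SAGA coactivator in place of TFIID. TAF6L was above by 1 of 6 probe sets (6.20 and 6.18), and the other 5 had means from 3.74 to 5.85. In the remaining pair TAF9B, a relative of TAF9, had 8.91 and 8.70 by its brightest probe set and 2 of 4 probe sets above.

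The paralogs not above background were GTF2A1L, TAF1L, TAF7L and MED12L. The first 3 of these are known for expression in the testis. GTF2A1L read 3.18 and 3.30 while GTF2A1 was above. TAF1L, a retroposed copy of TAF1, read 3.81 and 4.14. TAF7L read 3.65 and 3.75 by one probe set and 3.85 and 3.51 by the other, whereas TAF7 had 11.33 and 11.34. MED12L read 4.46 and 4.48. All 4 stayed under it when the 75th percentile replaced the 95th. GTF2A1L, TAF1L and MED12L were each seen by 1 probe set with a 7-digit identifier, a series described with the probe sets; a further GTF2A1L probe set, shared with the read-through symbol STON1-GTF2A1L, read 3.36 and 3.33.

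The promoters of these pairs are shown to set a gene that was called beside a paralog that was not. RefSeq promoter windows (GRCh38.p14), which span 250 bases before to 50 after each gene's start, were at hand for both genes in 3 of the 4 pairs. They are printed 5′ to 3′ with CG dinucleotides, the target of DNA methylation, in capitals. For the GTF2A1, TAF7L and POLR1B promoters, which have 2 windows each, 1 is shown.
GTF2A1, chr14:81221341-81221640, minus strand: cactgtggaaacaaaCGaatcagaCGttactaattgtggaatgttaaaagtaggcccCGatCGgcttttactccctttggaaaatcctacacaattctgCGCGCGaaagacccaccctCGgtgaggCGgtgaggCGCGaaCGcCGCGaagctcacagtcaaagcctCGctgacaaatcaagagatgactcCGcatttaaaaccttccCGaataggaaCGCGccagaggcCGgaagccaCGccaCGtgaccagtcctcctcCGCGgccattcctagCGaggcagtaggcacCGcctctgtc
GTF2A1L, chr2:48617606-48617905, plus strand: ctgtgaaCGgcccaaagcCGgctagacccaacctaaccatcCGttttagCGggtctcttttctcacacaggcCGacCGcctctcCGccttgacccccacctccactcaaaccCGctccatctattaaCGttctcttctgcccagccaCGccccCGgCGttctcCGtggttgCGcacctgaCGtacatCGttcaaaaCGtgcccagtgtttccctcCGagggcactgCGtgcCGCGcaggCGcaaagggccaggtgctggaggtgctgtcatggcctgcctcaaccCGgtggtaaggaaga
TAF7, chr5:141320735-141321034, minus strand: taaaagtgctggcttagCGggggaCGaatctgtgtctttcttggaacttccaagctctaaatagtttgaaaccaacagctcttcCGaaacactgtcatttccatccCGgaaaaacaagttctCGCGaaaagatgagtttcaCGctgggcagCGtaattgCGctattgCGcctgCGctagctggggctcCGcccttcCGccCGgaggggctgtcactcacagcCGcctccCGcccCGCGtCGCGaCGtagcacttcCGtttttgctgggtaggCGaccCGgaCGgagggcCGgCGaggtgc
TAF7L, chrX:101293034-101293333, minus strand: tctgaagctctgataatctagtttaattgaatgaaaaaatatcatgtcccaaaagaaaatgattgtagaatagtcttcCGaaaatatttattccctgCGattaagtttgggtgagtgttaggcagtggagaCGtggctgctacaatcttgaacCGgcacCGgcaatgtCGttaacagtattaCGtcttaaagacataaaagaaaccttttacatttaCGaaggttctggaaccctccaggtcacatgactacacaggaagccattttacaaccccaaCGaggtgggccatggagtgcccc
MED12, chrX:71118346-71118645, plus strand: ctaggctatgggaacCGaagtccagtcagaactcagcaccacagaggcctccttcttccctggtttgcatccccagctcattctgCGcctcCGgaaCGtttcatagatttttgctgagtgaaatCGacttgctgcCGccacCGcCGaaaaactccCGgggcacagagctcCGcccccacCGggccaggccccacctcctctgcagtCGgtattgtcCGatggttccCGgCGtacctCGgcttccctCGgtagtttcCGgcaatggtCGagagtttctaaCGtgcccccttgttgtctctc
MED12L, chr3:151085414-151085713, plus strand: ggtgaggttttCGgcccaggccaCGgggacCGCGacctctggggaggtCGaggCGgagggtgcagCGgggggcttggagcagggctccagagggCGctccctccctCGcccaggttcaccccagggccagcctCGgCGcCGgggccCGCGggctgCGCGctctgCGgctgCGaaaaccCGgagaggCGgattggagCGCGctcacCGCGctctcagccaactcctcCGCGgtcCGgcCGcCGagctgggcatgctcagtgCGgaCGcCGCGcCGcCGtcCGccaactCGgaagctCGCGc

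The 3 pairs differed in how their CG counts were ordered. The windows of GTF2A1 held 26 and 42 CG and that of GTF2A1L 23. TAF7 held 27 and TAF7L 9, but the second window of TAF7L held 44. MED12, which was above background, held 20, and MED12L, which was not, held 39. Over the 82 of 107 genes with a window, and with windows of 1 gene averaged, the median was 24.5 CG per window in 73 genes above background and 25 in 9 that were not. The 9 include the antisense genes GTF2A1-AS1 (36 CG) and GTF3C2-AS1 (0 CG). They also include POLR3A and MED24, whose calls rest on 1 probe set each. Over all measured genes with a window it was 26.0 in the 7326 above and 13.5 in the 5769 not above.

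A further shared feature was looked for in the same windows, by searching 11 motifs on both strands in any window of a gene. The ETS site CCGGAAGT lay in 20 of 82 genes (24.4%), against 7.39% of 13095 measured genes and 11.4% of those above background. Examples are the windows of POLR1B and MED11, shown with the site in capitals, which in both lies on the opposite strand and so reads ACTTCCGG.
POLR1B, chr2:112542215-112542514, plus strand: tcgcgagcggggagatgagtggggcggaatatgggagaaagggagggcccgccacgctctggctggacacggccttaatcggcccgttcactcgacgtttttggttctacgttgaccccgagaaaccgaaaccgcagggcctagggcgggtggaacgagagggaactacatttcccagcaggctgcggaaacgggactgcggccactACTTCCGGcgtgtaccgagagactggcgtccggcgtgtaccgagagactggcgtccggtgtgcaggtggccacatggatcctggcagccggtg
MED11, chr17:4731178-4731477, plus strand: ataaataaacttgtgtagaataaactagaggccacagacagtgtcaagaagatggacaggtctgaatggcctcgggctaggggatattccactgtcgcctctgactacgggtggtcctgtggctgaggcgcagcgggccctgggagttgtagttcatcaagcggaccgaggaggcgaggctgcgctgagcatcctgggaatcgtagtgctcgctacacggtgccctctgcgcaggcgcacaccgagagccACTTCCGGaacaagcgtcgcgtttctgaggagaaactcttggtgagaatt

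The genes with this site came from all 5 name families and included POLR1C, POLR2C, POLR2F, GTF2H1, GTF3A, TAF12, MED7 and MED17. They also included POLR3A and TAF13, which were not called above background. The TATA box TATAAA lay in 5 genes (6.10%, against 11.5% of all measured genes and 8.39% of those above). The E-box CACGTG lay in 20.7% (11.2% and 13.4%), the YY1 site ATGGCGGC in 14.6% (5.71% and 8.67%) and the NRF1 site in 7.32% (2.10% and 3.03%). The GC box GGGCGG lay in 59.8%, against 66.3% and 77.5%. The CCAAT box CCAAT, the gapped YY1 site GCCATNTTG and the CRE TGACGTCA lay in 36.6%, 8.54% and 6.10% of the genes, against 42.6%, 5.14% and 3.26% of all measured genes and 44.7%, 7.58% and 4.16% of those above. In the 73 genes of the machinery above background the ETS site lay in 24.7%, the GC box in 63.0% and the E-box in 19.2%. The YY1 site lay in 16.4% of these 73, the NRF1 site in 8.22%, the TATA box in 6.85%, the CCAAT box in 37.0%, the gapped YY1 site in 8.22% and the CRE in 6.85%. The exact strings searched for a ZNF143 (Staf)-like site and for the paired CGCG element lay in none of the 82 genes. They lay in 0.45% and 0.72% of all measured genes and in 0.75% and 1.13% of those above. Shares this low do not let an absence be told from the background. Forms that differ from the string by a letter were not counted, so an absence of ZNF143 sites is not shown. Matches of different motifs overlapped in 2 of the 100 windows. A match describes the letters and not a bound site, the motifs were chosen after values were seen, shorter forms of 3 of them were also tried, and no test was run on these shares.

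**Figure D3:**
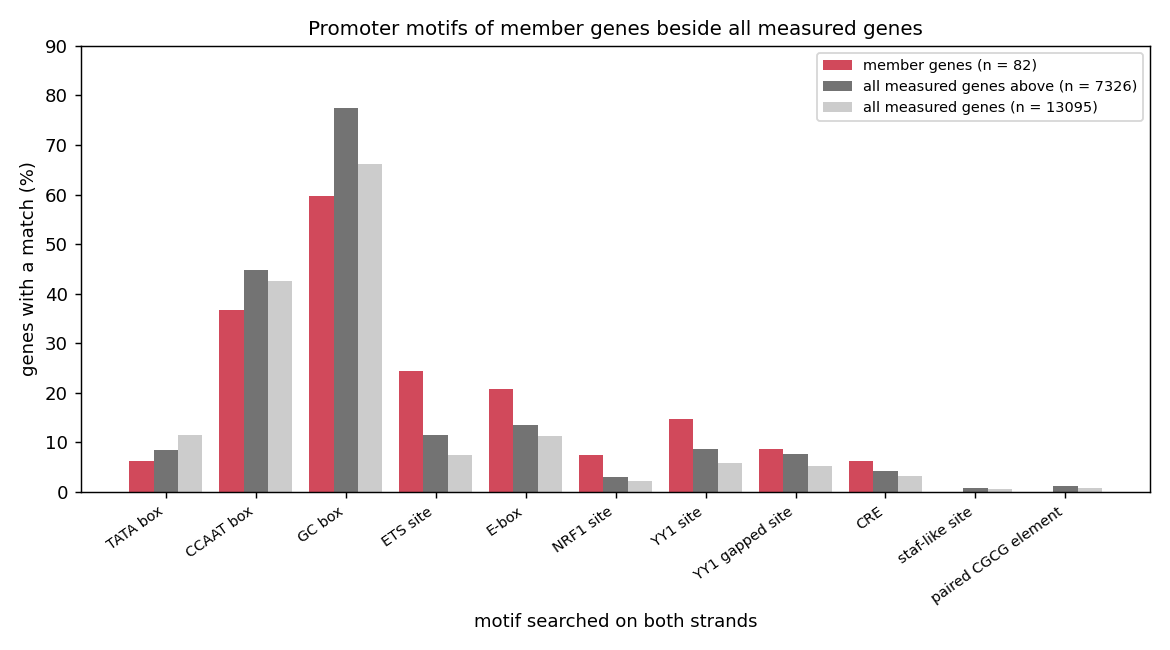
Share of genes (y axis, percent) whose RefSeq promoter window holds each of 11 motifs on either strand (x axis). Shown are the 82 genes of the name rule with a window, all 7326 measured genes above background with one and all 13095 measured genes with one. The 82 include the antisense genes GTF2A1-AS1 and GTF3C2-AS1. The ETS site stands at 24.4% against 11.4% and 7.39%, and the GC box at 59.8% against 77.5% and 66.3%.

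Probe sets of the same gene often gave different calls. Of the 107 genes 51 had 1 probe set and 56 had more. Of these 56 genes 31 had every probe set above, 23 had some and 2 had none (TAF7L and GTF3C2-AS1). The share with some but not all above was 41.1%, beside 32.2% of all genes with at least 2 probe sets. The share with all above was 55.4%, beside 33.2%, and the share with none above was 3.6%, beside 34.6%. A gene with none above cannot be mixed, so 41.1% beside 32.2% does not compare disagreement among called genes. The widest spread between probe sets of 1 gene was in POLR2B, whose means ran from 3.37 to 12.07. A gene's call therefore rested on its brightest probe set, and in POLR2A, POLR3B, TAF1, TAF8, TAF6L and MED13L the mean over all probe sets fell under the level that was set in the same way.

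Probe sets with 7-digit identifiers and those with 6-digit identifiers had different shares of calls. Among the genes of the machinery 10 of 30 of the former were above (33.3%) and 136 of 168 of the latter (81.0%). The shares over all probe sets with 1 symbol were 15.8% and 57.1%. This split was made after the values were seen. Of the 15 genes not above on both arrays 9 had 7-digit probe sets only: POLR3A, GTF2A1L, GTF2IRD2, TAF1L, MED12L, GTF2A1-AS1, GTF2IP7, GTF3C2-AS1 and MED15P9. Without that series, and with the level set anew (5.50 and 5.31), 90 of 95 measured genes were above (94.7%), beside 62.6% of all genes, and the genes not above were GTF2IRD1, GTF2IRD2B, TAF13, TAF7L and MED24.

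**Figure D4:**
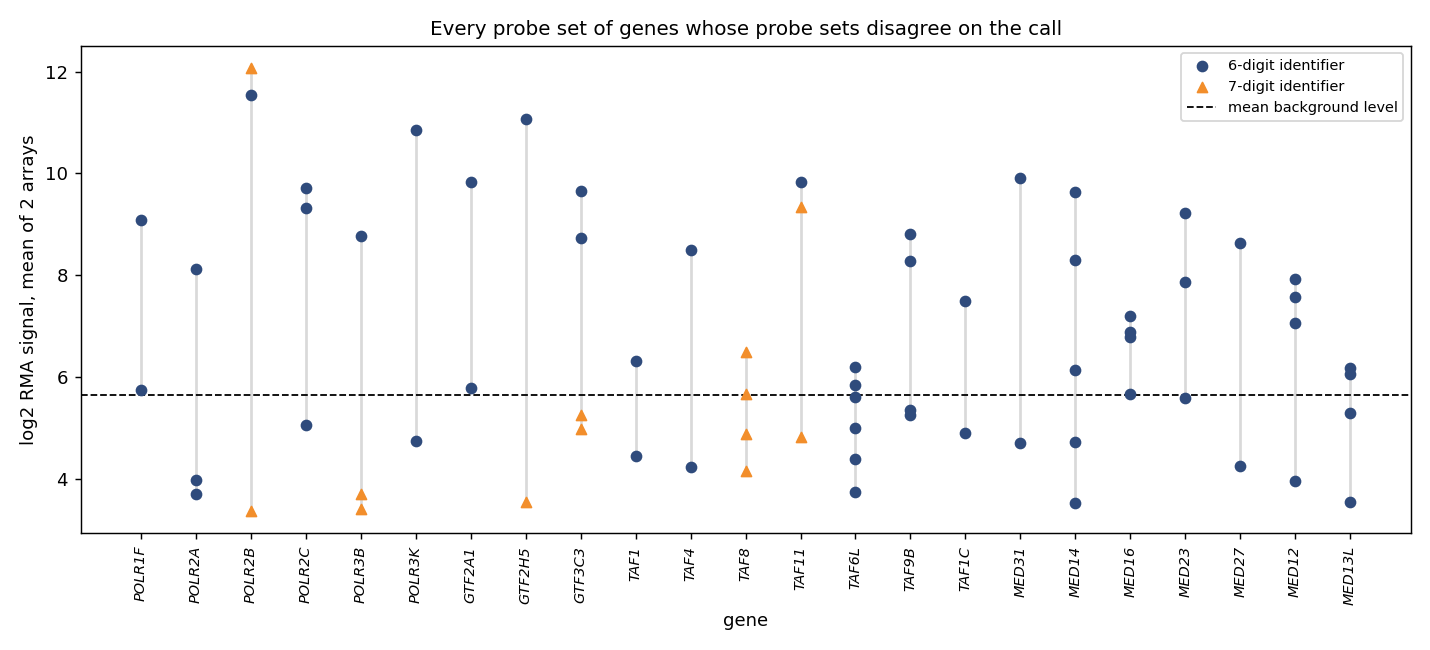
Mean log2 RMA signal of the 2 arrays (y axis) for every probe set of the 23 genes (x axis) whose probe sets gave different calls, as circles for 6-digit and triangles for 7-digit identifiers, with a dashed line at the mean of both background levels. In POLR2B the probe sets run from 3.37 to 12.07, and in TAF6L 1 of 6 was above on both arrays.

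The arrays gave nearly the same values for these genes. In the 93 genes called on 1 array or both, the median difference (replicate 2 minus replicate 1) was -0.01, beside -0.02 for all 9000 such genes. The median size of the difference was 0.06, beside 0.07, and 63 of the 93 genes differed by less than 0.1. TAF8 was the only gene past 0.58 (-0.59), beside 0.711% of all genes (0.444% higher in replicate 1 and 0.267% higher in replicate 2). Its other probe sets differed by 0.13, -0.06 and -0.09. POLR2A followed (-0.42), then TAF1B (-0.33), TAF1A (-0.25) and POLR3F (-0.22). In the other direction stood GTF2H2B (0.32), GTF2I (0.30), MED22 (0.25), TAF4B (0.22) and POLR1G (0.22). Of these 10 genes 7 had 1 probe set; the second TAF1B probe set differed by -0.06 and those of POLR2A by -0.07 and -0.16. Over the 41 genes with 2 probe sets or more above background, the 2 brightest pointed the same way in 21. POLR3E was counted as not pointing the same way because its second probe set read 8.34 on both arrays. Neither this count nor that of differences under 0.1 is set beside the same share over all genes. The pseudogene entry MED15P9 differed by 0.74 (4.04 and 4.78) but lay under the level on both arrays.

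**Figure D5:**
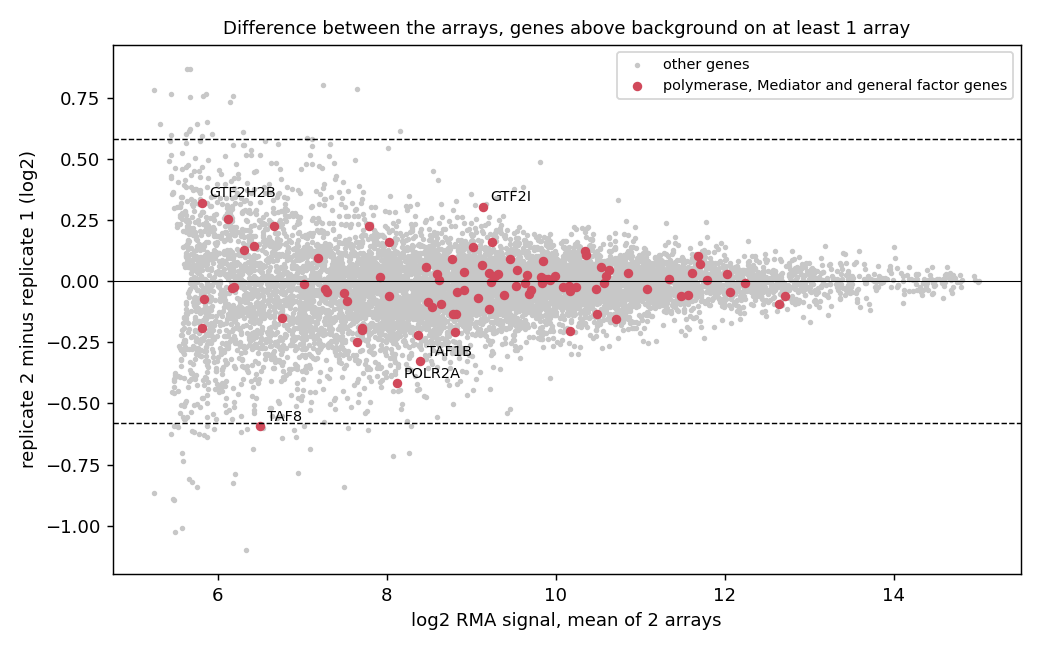
Difference between the arrays (replicate 2 minus replicate 1, log2; y axis) against the mean log2 RMA signal (x axis), for genes called on 1 array or both, with the 93 genes of the machinery in red, all others in grey and dashed lines at 0.58 in either direction. TAF8 at -0.59 is the only red point past a line, and the red points lie within the spread of the grey ones.

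Factors that work with this machinery, outside the name rule, were above background in 45 of 46 measured cases, beside 52.3% of all genes. For polymerase II initiation 10 of 10 were: TBP, the TATA-binding protein (8.12 and 8.06), its relative TBPL1 (10.61 and 10.63) and the TFIIH helicase ERCC2 (6.96 and 6.83) among them. For polymerases I and III 12 of 13 were, with UBTF, which marks active ribosomal DNA (7.74 and 7.68), RRN3 (10.05 and 9.91) and TTF1 (9.46 and 9.57). SNAPC2, a subunit of the complex for small nuclear RNA promoters, was the exception (5.57 and 5.55). Elongation factors were above in 19 of 19 cases, such as the P-TEFb kinase CDK9 (8.71 and 8.60) and its cyclins CCNT1 (10.15 and 10.08) and CCNT2 (8.33 and 8.20). The mitochondrial transcription genes were above in 4 of 4, including the mitochondrial polymerase POLRMT (8.02 and 7.97), TFAM (11.20 and 11.24) and TFB1M (10.02 and 9.99). Some of these factors were above by 1 probe set of several: BRF1, AFF4 and TFB2M (1 of 4), ELL (1 of 3), and CCNC, BDP1, LARP7 and POLRMT (1 of 2). The lists of factors were chosen with earlier results of these data known.

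The rule left out 17 probe sets that carry several symbols of which at least 1 matches, and 15 of them were above background. Beside this stand 47.7% of all probe sets with 1 symbol. The share over all 1407 probe sets with several symbols is not given, so 15 of 17 is not read as particular to these factors. The 107 genes lie on 22 chromosomes, with at most 9 on 1, and only 3 pairs follow each other directly among measured genes. GTF2A1 and GTF3C2 each lie beside their antisense gene, and GTF2IRD1 beside GTF2I. Of the genes listed for the complexes, the TFII-I family and the paralogs, 11 had no probe set under the rule. Values from outside it are given above for CRCP, TAF9 and the GTF2H2 copies, while MED6, MED25, MED30 and TAF3 were not analysed here.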

How the data were processed

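Probe set intensities of 2 arrays were deposited by the authors on a linear scale (6.29 to 33093), made with RMA per the submitters' processing notes; the version and genome build are not given in the sources used here. The method corrects background, equalises the distribution of arrays and summarises probes, so a global change in RNA cannot be seen. Here log2 was taken. Of 36289 probe sets 29493 had 1 symbol, 1407 several and 5389 none; 29461 of the first were matched by Entrez ID to RefSeq (GRCh38.p14), used for names and order only.

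The background level used 85 measured of 93 tissue-restricted genes. RMA gives no detection call, and a gene under the level may be transcribed. The members and lists were chosen with earlier results of these data known. Genes named were the first 3 of each role group and partner list, those not above background, paralog pairs, genes with mixed probe sets and the 5 largest differences in each direction; others were chosen after their values were seen. The number of arrays limits precision. The steps that make calls and differences were also run on simulated data as a self-check. That run does not show how reliable the calls or differences in these arrays are. Python 3.11.15, pandas 2.3.3 and statsmodels 0.14.6 were used. Other levels, probe set choices, normalizations and single arrays were tried.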

Additional observations from a re-analysis of the deposited data

How the results depend on the processing

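The count of 92 of 107 genes above background ranged from 65 to 95 over the settings tried. The lowest was 65 of 81 measured, without _x_at and _s_at probe sets (80.2%, beside 46% of all genes). The highest was 95, with the 75th percentile of the reference genes (88.8%, beside 62.7% of all genes). The count of 146 of 198 probe sets ranged from 114 to 167, for which no share over all probe sets is given. At the 99th percentile 78 genes (72.9%) were above, beside 41.3% of all genes; those lost were GTF2IP12, GTF3C5, MED13L, MED15, MED16, MED22, MED26, MED9, POLR1A, POLR3D, TAF1, TAF4B, TAF6L and TAF8. The level at the 99th percentile (7.27 and 7.36) lay between the reference genes SFTPB (6.69 and 6.79) and MBP (10.30 and 10.36). It therefore depended on the signal of MBP, which was itself called above background. Without replicate 1 the gene count was 93, with GTF2H2B (86.9%, beside 53.1% of all genes). Without replicate 2 it was 92 (86.0%, beside 53% of all genes). The median signal of 8.92 was 7.81 with the mean of all probe sets, 8.12 without _x_at and _s_at probe sets, 9.21 without 7-digit probe sets (a setting chosen after seeing the data), and 8.93 without either replicate. The count of 1 gene differing by more than 0.58, TAF8, became 0 with the mean of all probe sets, without _x_at and _s_at probe sets, with the loess trend taken out, after quantile normalization was run again, with a minimum of 1 and without 7-digit probe sets. The median difference of -0.01 lay between -0.02 and 0.004, turning sign after both normalizations. The median SD of a gene between the arrays was 0.04, which describes single genes and not the precision of this median. Of the counts per complex under these settings 160 kept within 1.5 times and 10 did not, 7 of them in settings that measured fewer genes. A second tissue-restricted list was planned as the reference and not run, since none was at hand. No paired analysis was possible because the labels give 1 group.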
